A study of Canis lupus familiaris with 8 samples.

Results

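C3 and C6 are proteins of the complement cascade, and their transcripts were measured in the hearts of dogs with hyperhomocysteinemia (HHcy), in which the amino acid homocysteine is high in blood. Every probe set that the platform annotation gives the single symbol C3 or C6 was taken, a probe set being a group of short oligonucleotide probes read as 1 signal. Of the 23913 probe sets on the array, 7 were found in this way, 6 for C3 and 1 for C6. A further 1 carries C6 beside another symbol and was left out. The HHcy group held 4 dogs given methionine in their drinking water for 2 weeks, and the control group held 4 dogs without that treatment. All 8 were male dogs of 23 to 27 kg, with 1 Affymetrix canine array of cardiac RNA per dog. The labels name neither the chamber of the heart nor the breed, the dose of methionine or the homocysteine level reached. The series asks how chronic HHcy changes cardiac gene expression. Both genes were chosen because they stood among the probe sets higher in HHcy in an earlier reading of these arrays, so their difference between the groups is described without a test.

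C3 is the protein on which the classical, lectin and alternative routes of complement activation meet. Convertase enzymes cut it into C3a, a small inflammatory peptide, and C3b, which binds covalently to nearby surfaces through a reactive thioester and marks them for uptake by phagocytes. Further down the cascade C5 is cut, and C6 joins the released C5b as the next step in building the membrane attack complex with C7, C8 and C9. The liver supplies most of the C3 and C6 in plasma, and macrophages, fibroblasts and epithelial cells are among the other cells known to make complement proteins.

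On these arrays 14301 probe sets passed the filter on dim signals. Of these, 14 (0.0979%) were higher in HHcy at a Benjamini-Hochberg adjusted p under 0.05 with limma, while 0 were lower (849, or 5.94%, lower at an unadjusted p under 0.05). The median log2 fold change over the tested probe sets was 0.15 with the signals as deposited, 0.011 after quantile scaling and -0.18 after median scaling. The labelled tissue was checked on cardiomyocyte markers. The troponin TNNI3 had signals of 31406, 393, 27489 and 28252 in HHcy dogs 5, 6, 7 and 8, against 20831 to 36542 in controls. For the light chain MYL3 the signal on HHcy 6 was 27.4, against 6933 or more on every other array. HHcy 6 therefore stands apart from the other arrays on these markers. The fold changes of C3, C6 and the main complement genes, and the complement counts, are given with and without it. The ratio of 3' to 5' signal of actin, a sign of RNA breakdown, reached 599.6 for HHcy 6 and 15.3 for HHcy 5. It was 2.67 for HHcy 7 and 1.69 for HHcy 8, while controls had 0.378 to 2.49. For GAPDH the ratio was 17.2, 10.5, 5.14 and 3.56 in HHcy dogs 5, 6, 7 and 8, against 1.46 to 3.76 in controls. HHcy 5, 6 and 7 thus lay above every control on both ratios. The number of arrays, 4 in each group, limits the precision of every value.

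The brightest C3 probe set, 1583409_s_at, had signals of 8263, 9704, 2989.85 and 7665 in HHcy dogs 5, 6, 7 and 8, against 516, 263, 569 and 629 in control dogs 1, 2, 3 and 4. The lowest HHcy signal was 4.75 times the highest control signal, so the groups did not overlap. It averaged 7156 ± 2906 in HHcy dogs and 494 ± 161 in control dogs (SD, n = 4 each). The log2 fold change, HHcy minus control on the log2(signal + 24) scale, was 3.73 ± 0.39 (SE), or 13.3-fold. Set against the mean of the controls on that scale, C3 was 16.7-fold higher in HHcy 5, 19.6-fold in HHcy 6, 6.09-fold in HHcy 7 and 15.5-fold in HHcy 8. HHcy 7 thus had the smallest C3 signal of its group, and the other HHcy dogs lay close together. Among controls, dog 2 had the smallest. In whole heart tissue, more RNA per cell and more cells that hold the transcript cannot be told apart.

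C6 was measured by a single probe set, 1585839_at. Its signals were 2119, 2539, 2307 and 1102 in HHcy dogs 5, 6, 7 and 8, against 346, 169, 443 and 438 in control dogs 1, 2, 3 and 4. The groups did not overlap here either, the lowest HHcy signal being 2.48 times the highest control signal. C6 averaged 2017 ± 634 in HHcy dogs and 349 ± 128 in control dogs (SD, n = 4 each), a log2 fold change of 2.47 ± 0.36 (SE), or 5.53-fold. HHcy 8, which was high for C3, was the lowest HHcy array for C6, and control dog 2 was again the lowest control.

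The remaining 5 C3 probe sets gave smaller differences. For 1590802_s_at the signals were 481, 710, 203 and 619 in HHcy dogs 5 to 8, against 61.6, 151, 44.1 and 90.9 in control dogs 1 to 4. These groups did not overlap, and the log2 fold change was 2.21 ± 0.42 (SE), or 4.63-fold. For 1591516_x_at, signals were 232, 401, 119 and 275 in HHcy dogs, against 134, 204, 42.1 and 134 in controls. HHcy 7 lay under 3 of the controls there, and the log2 fold change was 0.91 ± 0.44 (SE). In Affymetrix naming, _s_at marks probes shared by several transcripts and _x_at probes that may bind other sequences. All 3 tested C3 probe sets, the brightest among them, carry such a suffix, so their signals need not come from C3 alone.

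The last 3 C3 probe sets, which carry neither suffix, were too dim to be tested. Their signals lay below 24, the pseudocount, on 5, 4 and 4 of the 8 arrays, and folds for them would rest on that constant. For 1591741_at, the signals were 85.1, 294, 9.02 and 145 in HHcy dogs 5 to 8, against 9.77 to 19.2 in controls. HHcy 7 was thus at control level on this probe set while the other HHcy dogs lay above every control. The groups overlapped on 1590080_at, with 7.08 to 152 in HHcy and 5.42 to 60.1 in controls. They also overlapped on 1591281_at, with 10.3 to 60.2 in HHcy and 12.5 to 69.4 in controls. In all, 3 of the 7 probe sets had groups that did not overlap, all higher in HHcy, and the same held for 7.49% of all tested probe sets. All 4 probe sets bright enough to be tested would have passed the filter on their control arrays alone. Nothing is read from the count of 3, since the genes were chosen on this contrast.

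**Figure D1:**
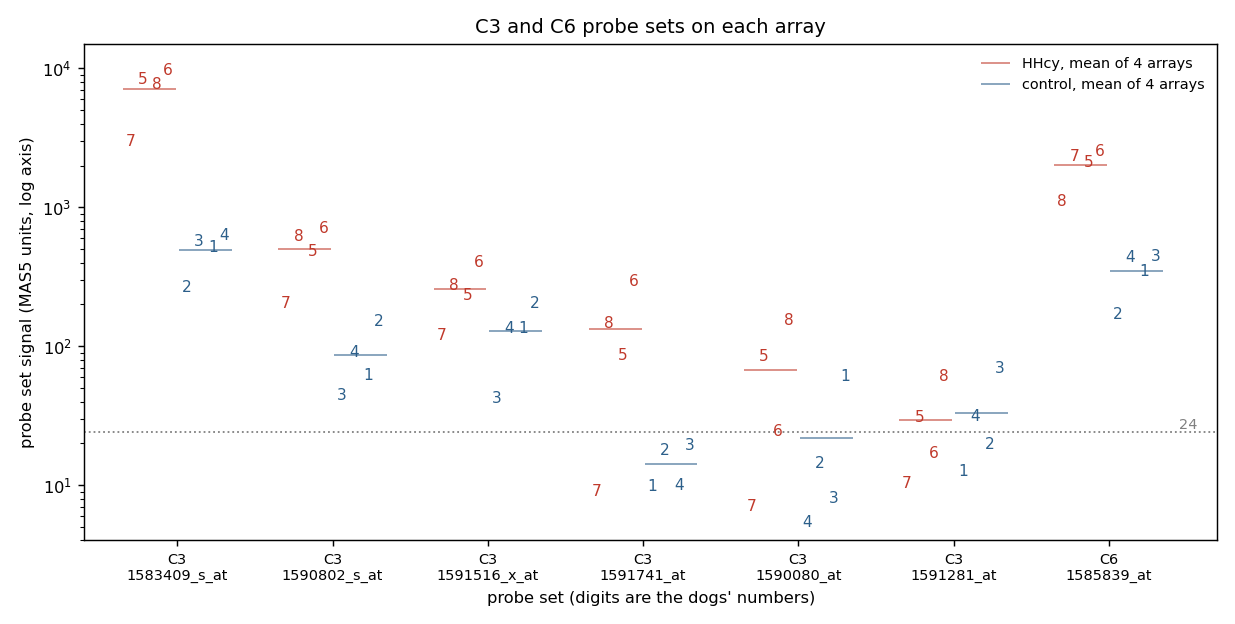
Signal of each C3 and C6 probe set on a log axis, with HHcy dogs left of control dogs, each digit a dog's number and each bar the mean of 4 arrays. The HHcy dogs lie above every control on 1583409_s_at, 1590802_s_at and the C6 probe set, and the dimmest C3 probe sets lie around the dotted line at 24.

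HHcy 7 had the lowest signal of its group on each of the 6 C3 probe sets, and HHcy 6 had the highest on 4 of them. For C6 the order was different, with HHcy 7 second and HHcy 8 lowest. Deviations from the group means over the 8 arrays correlated at 0.33 (Pearson) between the brightest C3 probe set and C6, and at -0.53 between 1590802_s_at and C6. Between the C3 probe sets themselves that correlation was 0.36 for 1583409_s_at with 1590802_s_at and 0.91 for 1590802_s_at with 1591516_x_at. These are descriptions over 8 arrays that share their scaling and their RNA quality. Control dog 2, lowest on the brightest C3 probe set, was the highest control on 1590802_s_at and 1591516_x_at, so the C3 probe sets did not rank the controls alike.

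With HHcy 6 left out, the log2 fold change was 3.54 for C3 and 2.34 for C6. Without both HHcy 5 and HHcy 6, the arrays of highest 3' to 5' ratio, C3 was still higher by a log2 fold change of 3.28 and C6 by 2.20. With the ratio as a covariate the values were 3.12 for C3 and 1.91 for C6. Averaging the tested C3 probe sets, in place of the brightest, gave 2.28. Over the 20 settings tried the C3 fold ran from 4.87 to 17.2 and the C6 fold from 3.77 to 6.64.

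**Figure D2:**
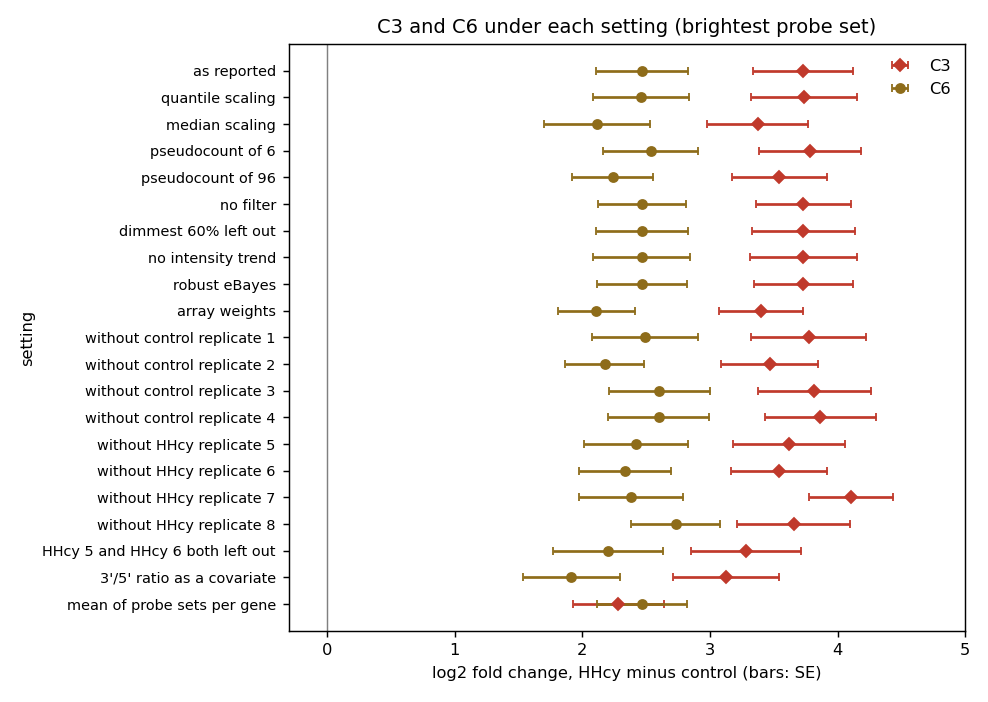
Log2 fold change, HHcy minus control, of the brightest C3 probe set (diamonds) and of C6 (circles) as reported and under 20 other settings, with SE as bars. C3 runs from 2.28 to 4.11 and C6 from 1.91 to 2.73, and C3 lies above C6 except where the C3 probe sets are averaged.

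The other genes of the complement system were described from 6 lists by role, chosen with earlier results of these arrays known. Of 56 genes, 20 had a probe set of their own, of which 16 were bright enough to be tested, and the other 36 were not analysed here. The genes not analysed include all 3 of the alternative pathway list (CFB, CFD and CFP) and C7, CD46, CD55 and C3AR1. None of the 16 passed with limma over all probe sets, the smallest adjusted p being 0.121, although 8 had an unadjusted p under 0.05, all higher in HHcy. That is 50% of the 16, against 11.9% of all tested probe sets. On 7 of the 16 genes (43.8%) every HHcy dog lay above every control, against 7.49% of all tested probe sets. These were C1R, C1S, C2, CD59, CLU, FCN2 and SERPING1, and CFI was also among the 8. C1R separated narrowly, with a lowest HHcy signal of 725 and a highest control signal of 722. The genes are counted by their brightest probe set, while the shares are over all tested probe sets. The median log2 fold change of the 16 was 0.57, against 0.15 over all tested probe sets. Without HHcy 6 the counts were 7 (against 8.5% of all tested probe sets) and 7 (against 8.97%). Without HHcy 5 and HHcy 6, 15 of the genes were bright enough to be tested. Of these, 5 (33.3%) had an unadjusted p under 0.05, against 4.07% of all tested probe sets, and 8 (53.3%) had groups that did not overlap, against 11.4%.

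Among activators upstream of C3, the 6 tested genes of the classical and lectin routes had log2 fold changes from 0.13 to 1.79. C1S is the protease of the C1 complex that cuts C4 and C2. Its brightest probe set had signals of 3453, 7338, 2663 and 2427 in HHcy dogs, against 1311, 778, 1755 and 595 in controls. The groups did not overlap, and the log2 fold change of C1S was 1.79 ± 0.41 (SE; adjusted p 0.121). A pair of other C1S probe sets had -0.0017 and 0.093, so the probe sets of C1S disagree, and their mean had 0.63. With the 3' to 5' ratio as a covariate the brightest had 0.99. C2, which supplies the protease of the classical C3 convertase, had signals of 931, 1459, 1179 and 998 in HHcy dogs, against 516, 74.1, 680 and 671 in controls. Its log2 fold change was 1.52 ± 0.55 (SE; adjusted p 0.203), and 0.84 without control dog 2 or 0.87 with the covariate. The other tested C2 probe sets, at 3.24 (adjusted p 0.0801) and 1.45 (adjusted p 0.119), were also higher in HHcy. C1QA and C1QC, chains of the recognition protein C1q, had 0.13 and 0.23.

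In the terminal pathway, to which C6 belongs, C5 and C8G were bright enough to be tested. C5, the protein whose fragment C6 binds, had signals of 113, 161, 81.2 and 80.1 in HHcy dogs, against 120, 65.3, 58.3 and 106 in controls. These overlapped. The log2 fold change, 0.25 ± 0.38 (SE), had an adjusted p of 0.739 and turned to -0.059 with quantile scaling and -0.044 with median scaling. For C8G, a chain of C8, it was -0.12 ± 0.35 (SE), with an adjusted p of 0.874, and it turned to 0.0050 without control dog 4. The brightest C9 probe set, for the pore-forming last component, was dim, with 4.97 to 43.0 in HHcy dogs and 5.52 to 79.8 in controls. The probe sets of C8A and C8B were also too dim to be tested.

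Regulators of the cascade were measured by 5 soluble proteins and by CD59. Clusterin (CLU), a secreted chaperone that binds terminal complexes in fluid, had signals of 18107, 36153, 18805 and 11682 in HHcy dogs, against 3785, 984, 5820.0 and 7732 in controls. Every HHcy dog lay above every control, and CLU was higher by 2.42 ± 0.56 on the log2 scale (SE; adjusted p 0.121). This was 1.81 without control dog 2, 1.70 with array weights and 1.42 with the covariate. SERPING1, the inhibitor of the C1 proteases, had signals of 761, 1217, 703 and 656 in HHcy dogs, against 416, 452, 137 and 270.3 in controls. Its log2 fold change was 1.40 ± 0.36 (SE; adjusted p 0.141), and the groups did not overlap. CD59, a membrane protein that blocks assembly of the attack complex, had signals of 4447, 6279.95, 4411 and 4214 in HHcy dogs, against 1888, 1852, 3159.9 and 3209 in controls. The groups did not overlap for CD59, which differed by 0.96 ± 0.27 on the log2 scale (SE; adjusted p 0.150). The integrin chains of complement receptor 3, which binds a C3b fragment, overlapped between groups. The difference for ITGAM was 0.27 ± 0.34 on the log2 scale (SE), with an adjusted p of 0.690, and was -0.068 after median scaling. That for ITGB2 was -0.97 ± 0.58 (SE; adjusted p 0.396), and -2.17 with the covariate or -1.80 without HHcy 5 and HHcy 6. Without HHcy 6 alone, the log2 fold change was 1.45 for C1S, 1.40 for C2, 2.13 for CLU, 1.21 for SERPING1 and 0.83 for CD59. It was then 0.079 for C5, -0.057 for C8G, 0.20 for ITGAM and -1.47 for ITGB2.

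**Figure D3:**
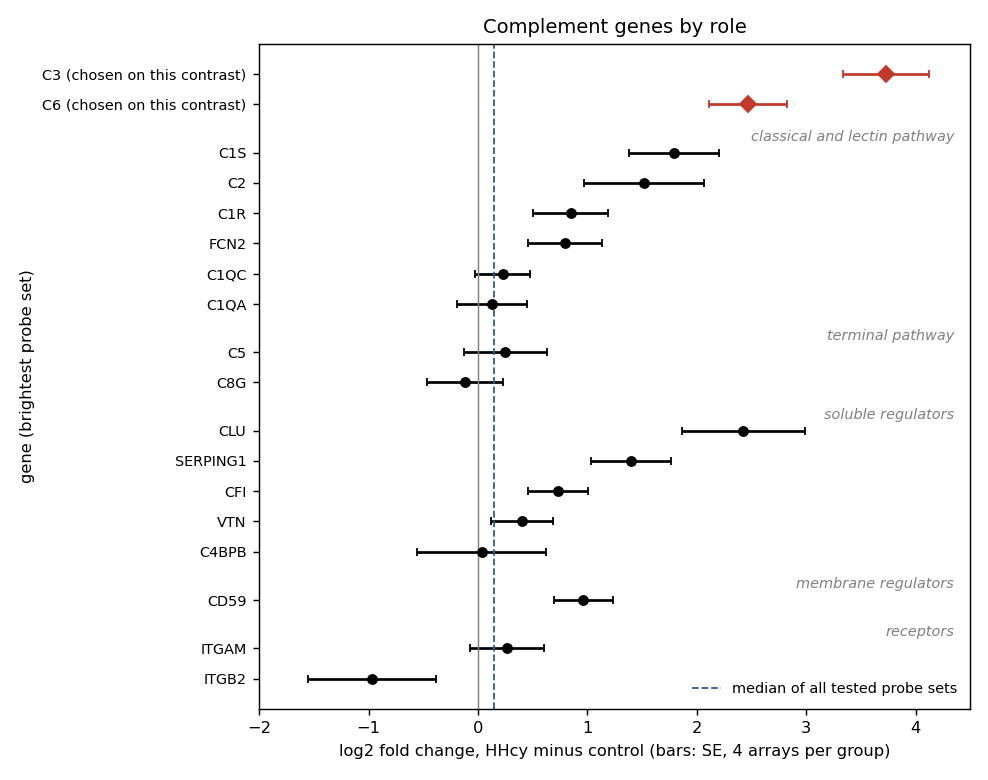
Log2 fold change, HHcy minus control, with SE (4 arrays per group) for C3, C6 and the 16 other tested complement genes, grouped by role, each by its brightest probe set. CLU, C1S, C2 and SERPING1 lie to the right of the dashed median of all tested probe sets (0.15), while C5, C8G, C1QA and C1QC lie near it.

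Genes related to C3 and C6 by protein family were few. CD109, a thioester protein of the C3 family, had signals of 177, 313, 178 and 157 in HHcy dogs, against 187, 20.1, 16.0 and 31.8 in controls, a difference of 1.72 ± 0.53 on the log2 scale (SE; adjusted p 0.168). Control dog 1 lay above 3 of the HHcy dogs. It was the 1 tested member of 6 in that list, and 0 passed. MPEG1, a perforin-domain protein of macrophages and the 1 tested member of the 6 related to C6, had 0.45 ± 0.44 (SE; adjusted p 0.597). A list of 21 genes tied to the induction of C3 transcription held cytokines, their receptors, transcription factors and the inhibitors NFKBIA and SOCS3. Of these genes, 6 were bright enough to be tested and 0 passed. At an unadjusted p under 0.05, 1 was higher, as were 11.9% of all tested probe sets. The median log2 fold change of the 6, NFKBIA among them, was -0.47. The receptor LIFR entered it with -0.80 by its brightest probe set, while another tested LIFR probe set had 1.26. The sign of the median depends on which of these is taken. The cytokine IL1B had signals of 1574, 2199, 1259.7 and 1241 in HHcy dogs, against 1365, 454, 205 and 60.4 in controls, a difference of 2.20 ± 0.66 on the log2 scale (SE; adjusted p 0.162). Another IL1B probe set had 0.038. NFKBIA, an inhibitor and target of NF-kB, had -0.77 ± 0.36 (SE; adjusted p 0.290). The probe sets of IL6 and TNF were too dim to be tested.

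Summed markers of some other cell types did not overlap between the groups, and their part in the C3 and C6 values was not tested. Macrophage markers had 11 of 12 genes measured, with summed signals of 8067 to 14780.4 in HHcy dogs and 4214 to 6499.8 in controls. None of the 11 passed with limma, while 8 were higher at an unadjusted p under 0.05, as were 11.9% of all tested probe sets, and their median log2 fold change was 1.33. CD14, a macrophage co-receptor for lipopolysaccharide, had 621, 621, 602 and 479 in HHcy dogs, against 308, 120.1, 285 and 149.7 in controls. HHcy 8 had the lowest macrophage sum of its group, as it had the lowest C6 signal. This was not particular to macrophage markers, since HHcy 8 also had the lowest fibroblast sum (31823) and endothelial sum (22969) of its group. Mesothelial and epithelial markers had 4 of 11 genes measured, with summed signals of 320.0 to 1659 in HHcy dogs and 125 to 288 in controls. The keratin KRT8 had 222, 709, 106 and 648 in HHcy dogs, against 65.8, 30.8, 81.5 and 16.5 in controls. HHcy 7 was the lowest of its group and HHcy 6 the highest for KRT8, as for the brightest C3 probe set. Of the other measured genes of the list, EPCAM had the same lowest and highest HHcy dogs. KRT18 was lowest in HHcy 7 but highest in HHcy 8 (404, against 154 in HHcy 6), and CDH1 was highest in HHcy 7 (96.2). Nor was this order particular to the list. Summed hepatocyte markers were also lowest in HHcy 7 (827) and highest in HHcy 6 (1698), as were summed T cell markers (719 and 1195).

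Hepatocyte markers, of which 10 of 15 genes were measured, overlapped between groups, with summed signals of 827 to 1698 in HHcy dogs and 690.5 to 1153 in controls. Albumin (ALB) had 101, 193, 31.6 and 82.3 in HHcy dogs, against 149, 117, 92.0 and 74.3 in controls, lowest in HHcy 7. None of the 5 tested hepatocyte markers passed with limma, and 1 was higher at an unadjusted p under 0.05, as were 11.9% of all tested probe sets. Their log2 fold changes ran from -0.20 for ALB to 0.93 for the fibrinogen chain FGB, with a median of 0.42. On the apolipoprotein APOA2 and the urea cycle enzyme CPS1, named after their values were seen, every HHcy dog lay above every control. The same held for 7.49% of all tested probe sets. APOA2 had 143 to 273 in HHcy dogs and 45.5 to 136 in controls. CPS1, too dim to be tested, had 75.4 to 121 in HHcy dogs and 4.12 to 39.4 in controls. Fibroblast markers, with 6 of 11 genes measured, summed to 31823 to 68089 in HHcy dogs and 19177 to 30099 in controls. Their medians by array were closer, at 0.381 to 1.63 in HHcy dogs and -0.68 to 0.369 in controls. Of the 5 tested, 4 were higher at an unadjusted p under 0.05 with limma, against 11.9% of all tested probe sets. The collagen COL3A1 had a log2 fold change of -0.48. Only on DCN, 1 of the 5, did every HHcy dog lie above every control, against 7.49% of all tested probe sets. Cardiomyocyte markers, with 8 of 12 genes measured, summed to 14268 on HHcy 6. The remaining HHcy dogs had sums of 162921 to 195084, and controls had 153774 to 237139. The sums overlapped for the 5 measured endothelial markers of 8 (22969 to 32723 in HHcy dogs and 21487 to 29349 in controls), for the 3 measured neutrophil markers of 12 (180.5 to 375 and 95.9 to 245) and for the 4 measured adipocyte markers of 8 (462 to 2231 and 620.2 to 1141). The highest adipocyte sum was that of HHcy 6, and the other HHcy dogs had 462 to 623. Adiponectin (ADIPOQ) had 53.2 to 659.8 in HHcy dogs and 85.1 to 287 in controls. Only HHcy 6 was above the highest control. The 5 measured T cell markers of 7 summed to 719 to 1195 in HHcy dogs and 268 to 670.5 in controls. These sums hold the brightest CD4 probe set, with a log2 fold change of 1.46, while another CD4 probe set had -1.29. The medians by array of the T cell list (0.52 to 1.21 in HHcy dogs and -0.77 to 0.60 in controls) and of the mesothelial and epithelial list (0.686 to 2.57 in HHcy dogs and -0.29 to 0.690 in controls) overlapped, unlike their sums. No gene of these marker lists, taken by its brightest probe set, passed with limma.

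**Figure D4:**
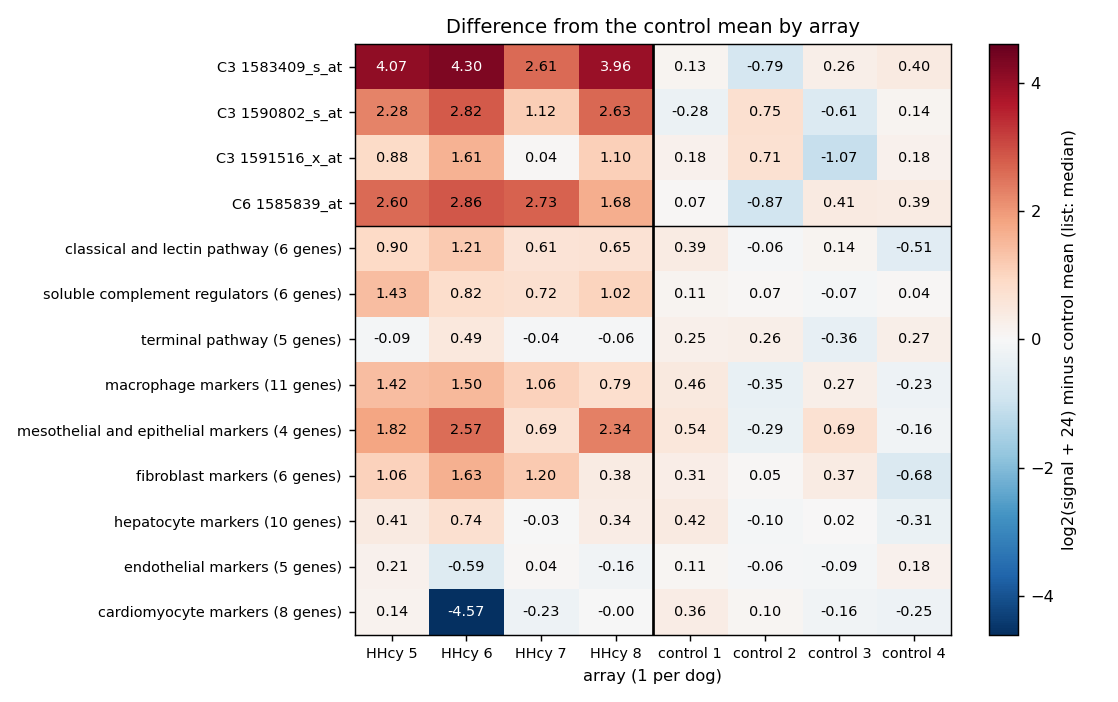
Difference of log2(signal + 24) from the control mean on each array, for the 3 brightest C3 probe sets and C6 and as the median over all measured genes of each list, dim ones included. C3 is lowest among HHcy dogs in dog 7 and C6 in dog 8, and the median of the cardiomyocyte markers is -4.57 on HHcy 6.

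Genes whose levels followed C3 and C6 most closely were taken from 5014 other genes, each by its brightest tested probe set, by Pearson correlation over the 8 arrays. For C3 these were TCEANC, DET1, NLRP3, SUPT16H and SAA1, with r from 0.974 for TCEANC to 0.965 for SAA1. SAA1, an acute-phase serum amyloid A, had signals of 7473, 4081, 1798 and 6638 in HHcy dogs, against 254, 139.7, 159.6 and 88.6 in controls, and was lowest among HHcy dogs in dog 7, as C3 was. NLRP3, the sensor protein of an inflammasome, had signals of 363, 503, 268 and 369.9 in HHcy dogs, against 179, 93.6, 138 and 119 in controls. For C6 they were IL18BP, CTSC, LOC611215, OS9 and LAMP2, with r from 0.976 for IL18BP to 0.967 for LAMP2. CTSC, the lysosomal protease cathepsin C, had signals of 3035, 3155, 2943 and 1156 in HHcy dogs, against 689.7, 494, 905 and 679 in controls. CTSC, like C6, was lowest within the HHcy group on HHcy 8. Since C3 and C6 separate the groups, any gene that does so scores highly on this measure. By deviations from the group means instead, the genes most like C3 were IBA57, SRSF6, IL5, SLPI and USP20 (r from 0.945 to 0.992) and those most like C6 were APOM, INPP5K, ID3, ANP32B and DEDD2 (r from 0.955 to 0.992). By ranks (Spearman) the correlation was lower for SRSF6 (0.69), USP20 (0.57), IL5 (0.48) and DEDD2 (0.45), and 0.857 or more for the others. IL5 had signals of 7.58 on HHcy 7 and 13.0 on control dog 2. USP20 had 23.2 on control dog 2, so these signals too lay below 24. None of the 10 passed with limma between groups. SLPI, a secreted protease inhibitor, had 347, 377, 147 and 283 in HHcy dogs, against 182, 155, 207 and 237 in controls, lowest in HHcy 7 and in control dog 2 as C3 was. SAA1, CTSC and SLPI were picked for high correlation with C3 or C6 on these same arrays. The lowest arrays they share with C3 or C6 are therefore no separate result.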

How the data were processed

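The authors deposited 1 linear intensity per probe set and array. The submitters' processing notes name MAS5, with no version. Arrays share a trimmed mean signal, so no scaling was added, and no detection call was used. Groups come from the titles, each replicate number naming a separate dog, and the labels give no batch. Of all probe sets, 10549 have 1 symbol in the platform annotation, 138 have several and 13226 have none. No genome coordinates are given.

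Values were analysed as log2(signal + 24), where 24 lies near the 20th percentile, which understates folds at low signal. After removal of 77 control probe sets, the dimmest 40% by mean over all arrays were left out. The test was limma's (limma 3.58.1 in R 4.3.3), with lmFit and eBayes with an intensity trend, Benjamini-Hochberg adjustment over 14301 probe sets and a threshold of 0.05. Genes with several probe sets are given by the brightest. The procedure was tested on simulated data.

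C3, C6 and the lists were chosen with earlier results of these data known. Named genes were all C3 and C6 probe sets, 9 fixed complement genes where tested and defining markers. From each list of complement genes, relatives and genes tied to C3 induction came the 2 of lowest p (or up to 4 passing). The 5 genes most like each of C3 and C6 were also named. Genes outside this rule (such as C1QA, C1QC and C9) are named to account for a list. Alternatives were other scalings, pseudocounts of 6 and 96, other filters and variance models, array weights, leaving out arrays, the 3'/5' ratio as a covariate and the mean of a gene's probe sets.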

Additional observations from a re-analysis of the deposited data

Results flagged for a closer look

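In a test for a value far from the others of its group of 4 arrays, run on each C3 and C6 probe set and the named complement genes in each group, 2 of 32 groups stood out, and chance gives about 1 in 20. On HHcy 6, CD59 had a signal of 6279.95, against 4214 to 4447 on the other HHcy arrays. On control 2, the brightest C2 probe set had a signal of 74.1, against 516 to 680 on the other controls. No C3 or C6 probe set stood out in this way.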

How the results depend on the processing

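C3 and C6 kept their direction under each of the 20 alternatives, and each kept its size within the spread between replicates except C3 with the mean over its tested probe sets (log2 fold change 2.28). The count of complement genes past the threshold was 0 in each setting. Their median log2 fold change, 0.57, was 0.35 with quantile scaling, 0.23 with median scaling, 0.33 with no filter and 0.85 with the dimmest 60% left out. The count of 8 genes at an unadjusted p under 0.05, looked at again after seeing the data, was 5 without HHcy 5 and HHcy 6, where the share over all tested probe sets was 4.07%, against 11.9% with all arrays. The cause was not tested. The count of all probe sets past the threshold, 14, was 7 with quantile scaling and 22 with median scaling. It was 9 with the dimmest 60% left out, 76 with array weights and 5 without HHcy 5 and HHcy 6. A covariate for the 3'/5' ratio gave 5. With the mean of a gene's tested probe sets, 8 of 5015 genes passed. When each array was left out in turn the count ran from 3 to 31, the 31 without HHcy 8. It was 3 without control 2 or control 4, 4 without control 3, 5 without HHcy 5 and 9 without control 1. Directions turned for C5 (-0.059 with quantile scaling, -0.044 with median scaling, -0.052 without HHcy 5 and HHcy 6, -0.17 with the covariate), ITGAM (-0.068 with median scaling, -0.22 without HHcy 5 and HHcy 6, -0.067 with the covariate) and C8G (-0.29 to 0.0050 when each array was left out in turn, the positive value without control 4), none of them past the threshold. No paired analysis was possible because the groups share no replicate number. Signals under 24 limit the 3 dimmest C3 probe sets.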

Other observations

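Genes next to C3 and C6 on the chromosome, by the order of protein-coding genes in the RefSeq table of the assembly UU_Cfam_GSD_1.0, were also looked at, 10 on each side. Near C3, 2 of 20 were bright enough to be tested, GPR108, higher in HHcy by 1.08 on the log2 scale (adjusted p 0.289), and TRIP10, at -0.52 (adjusted p 0.509). Near C6, 7 of 20 were tested, with log2 fold changes from -1.03 for the growth hormone receptor GHR to 1.11 for PRKAA1, a catalytic subunit of AMP-activated kinase. None of these 9 passed with limma (0 at an adjusted p under 0.05). The terminal component C9 lies 9 genes from C6 and was too dim to be tested.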
